A study of Mus musculus with 3 samples.

Results

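The genes described here are the 3 Runx genes, the core binding factor subunit gene Cbfb, and the 3 genes of the ETO corepressor family, Runx1t1, Cbfa2t2 and Cbfa2t3. They were examined through the peaks of 5-hydroxymethylcytosine (5hmC) listed in or near them. A peak was counted for a gene when its midpoint lay in the gene's span or within 5 kb of it, each distinct interval once. By this rule 424 of the 208468 listed peaks, or 0.203%, belonged to the 7 genes, and none was shared between members. Every member had at least 1 peak, as did 73.1% of the 21779 protein-coding genes, so this count by itself does not set the family apart. Every member also had a peak in its body, against 66.6% of all these genes.

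The series mapped 5hmC in mouse bone marrow cells. The labels name 2 samples of NIDF-AML, an acute myeloid leukaemia induced by FLT3-ITD, IDH2 R140Q, DNMT3A R882H and NPMc (a mutant NPM1), and 1 sample of normal BM (bone marrow). The labels do not state how the alleles were delivered, nor the strain or age of the mice. The 2 NIDF-AML samples have peak lists whose lines are all the same, and a list for normal BM was not analysed here.

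Both list headers name index 4 as the treatment library, against index 5 in replicate 1 and index 6 in replicate 2 as the control. The labels do not tie an index to a sample, and index 4, which the lists share, may be normal BM. The peaks may thus be from NIDF-AML or from normal BM. They are therefore called those of "the index 4 library" here, with no replicate and no comparison of NIDF-AML with normal BM. The read depth is unknown and the lists hold no peak height, so a gene without a peak is one for which none was listed. All labelled samples are of 5hmC, so the control libraries may hold 5hmC too, and a peak may then stand for more 5hmC than in the control. However, the lists are the same while their headers name different controls. What either control contributed to the calls is therefore unknown. The 10 marrow markers examined (Mpo, Elane, Ctsg, Lyz2, Csf1r, Itgam, Spi1, Cebpa, Ptprc and Cd79a) all had peaks, between 4 and 34 each. Of 10 markers of other tissues (Alb, Apob, Snap25, Gad1, Syt1, Neurod1, Ins2, Myh6, Krt5 and Cdx2), only Myh6 had a peak, and it had 1. Beside both counts stands the 73.1% of all protein-coding genes with a peak. The marker counts are a description and do not test from which cells the library came.

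RUNX proteins are transcription factors that bind DNA through the Runt domain, and CBFβ, the product of Cbfb, is the partner that strengthens this binding without touching DNA itself. RUNX1 is needed to form blood stem cells, RUNX2 to form bone and RUNX3 in T cells and other lymphocytes. The ETO proteins do not read a DNA sequence of their own but join transcription factor complexes and recruit histone deacetylases. In human acute myeloid leukaemia RUNX1 is fused to RUNX1T1, and CBFB to MYH11. TET enzymes make 5hmC by oxidising 5-methylcytosine, mainly at CG dinucleotides (CpG), and in many tissues it is found along the bodies of transcribed genes.

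The regions before the annotated starts of the genes are shown first, because several members have a pair of starts that differ in CpG content. The RefSeq promoter table (GRCm38.p6, the assembly behind mm10) matched 6 of the 7 members by symbol and gave 9 starts: a pair each for Runx1, Runx3 and Cbfa2t3 and 1 each for Runx2, Cbfb and Cbfa2t2. The 250 bases before both starts of the genes with a pair are printed below, 5′ to 3′ in the direction of transcription, with every CpG in capitals. They are chr16:92826075-92826324 and chr16:92697330-92697579 (minus strand) for Runx1, chr4:135120395-135120644 and chr4:135152295-135152544 (plus strand) for Runx3, and chr8:122699110-122699359 and chr8:122678176-122678425 (minus strand) for Cbfa2t3.
Runx1 first start: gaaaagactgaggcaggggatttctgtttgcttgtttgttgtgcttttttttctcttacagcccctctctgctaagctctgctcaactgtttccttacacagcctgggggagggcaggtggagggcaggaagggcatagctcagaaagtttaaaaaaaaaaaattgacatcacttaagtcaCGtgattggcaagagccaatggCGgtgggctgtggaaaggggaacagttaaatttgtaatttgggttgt
Runx1 second start: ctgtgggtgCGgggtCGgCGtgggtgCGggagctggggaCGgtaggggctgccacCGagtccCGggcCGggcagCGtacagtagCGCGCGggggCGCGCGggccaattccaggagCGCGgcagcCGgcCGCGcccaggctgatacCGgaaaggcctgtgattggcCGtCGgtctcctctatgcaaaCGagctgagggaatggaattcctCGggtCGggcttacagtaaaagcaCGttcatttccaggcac
Runx3 first start: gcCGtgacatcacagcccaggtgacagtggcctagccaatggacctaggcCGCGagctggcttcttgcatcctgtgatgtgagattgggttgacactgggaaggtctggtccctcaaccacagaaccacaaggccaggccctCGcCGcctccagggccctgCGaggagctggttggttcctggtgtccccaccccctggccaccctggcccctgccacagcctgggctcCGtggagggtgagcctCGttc
Runx3 second start: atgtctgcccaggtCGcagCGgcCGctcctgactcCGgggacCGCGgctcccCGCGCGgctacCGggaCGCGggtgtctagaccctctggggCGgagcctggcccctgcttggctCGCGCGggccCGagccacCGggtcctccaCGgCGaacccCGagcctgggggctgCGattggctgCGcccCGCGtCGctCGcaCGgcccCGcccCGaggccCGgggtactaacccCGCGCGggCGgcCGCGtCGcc
Cbfa2t3 first start: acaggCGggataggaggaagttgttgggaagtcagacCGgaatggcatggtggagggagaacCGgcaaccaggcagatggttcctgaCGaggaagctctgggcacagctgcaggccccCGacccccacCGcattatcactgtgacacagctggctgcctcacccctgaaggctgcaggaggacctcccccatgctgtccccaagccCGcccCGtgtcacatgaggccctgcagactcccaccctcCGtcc
Cbfa2t3 second start: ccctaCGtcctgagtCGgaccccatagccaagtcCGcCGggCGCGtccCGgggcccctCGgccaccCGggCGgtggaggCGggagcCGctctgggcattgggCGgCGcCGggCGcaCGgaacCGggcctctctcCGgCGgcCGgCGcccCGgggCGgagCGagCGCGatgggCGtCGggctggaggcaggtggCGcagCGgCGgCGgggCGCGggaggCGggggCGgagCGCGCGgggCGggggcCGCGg

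In each of these genes the first start is poor in CpG and the second is rich. Over the 300 bases of the table (250 before the start and 50 after it), Runx1 had 2 CpG at its first start and 35 at its second. Runx3 had 8 and 45 in the same order, and Cbfa2t3 had 10 and 53. The ratio of observed to expected CpG, which corrects for the content of C and G, was 0.137 and 1.01 for Runx1, 0.264 and 1.01 for Runx3, and 0.330 and 1.09 for Cbfa2t3. Runx2 had a single start in the table, poor in CpG (2 CpG, ratio 0.143). The single starts of Cbfb (30 CpG, 0.987) and Cbfa2t2 (51 CpG, 1.16) were rich. Over the 21263 starts of protein-coding genes in the table the median ratio was 0.567.

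The first starts of the 3 Runx genes share a further sequence. The longest run common to their 300-base windows is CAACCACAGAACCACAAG, and of the 21263 windows of protein-coding genes searched on both strands only these 3 held it. It was taken from the members' own sequences, so this count is a description. It holds ACCACA, the reverse complement of the core RUNX site TGTGGT, at 2 places. The stretches are printed below with ACCACA in capitals, from chr16:92826025-92826054 (minus strand), chr17:44814583-44814612 (minus strand) and chr4:135120503-135120532 (plus strand). The run begins at base 27 of the transcribed sequence in Runx1 and at base 22 in Runx2, and 136 bases before the start in Runx3.
Runx1: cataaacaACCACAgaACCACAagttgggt
Runx2: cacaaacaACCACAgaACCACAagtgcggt
Runx3: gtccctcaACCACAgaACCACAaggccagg
The core TGTGGT alone, searched on both strands, was present in 15% of all windows, and 2 or more times in 1.5%. It occurred 2 times at the first start of Runx1, 3 times at that of Runx2 and 2 times at that of Runx3. The windows of the other 6 member starts did not hold it. At each of the first starts of the 3 Runx genes, 2 of these matches are those inside the shared run. The counts are therefore not a separate finding. Such matches are letters in a window and were not tested as bound sites.

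The members ranged widely in peaks per kb. Cbfa2t3 had 0.879 peaks per kb of its span with 5 kb flanks (exact Poisson 95% interval 0.690 to 1.10), Runx1 had 0.801 (0.691 to 0.924) and Runx3 had 0.772 (0.577 to 1.01). Runx2 lay lower with 0.292 (0.236 to 0.357). Cbfb had 0.140 (0.0603 to 0.275), Cbfa2t2 0.0441 (0.0143 to 0.103) and Runx1t1 0.00616 (0.000156 to 0.0343). The median of the 7 was 0.292 peaks per kb, and the median over all protein-coding genes was 0.106.

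In this order the intervals of Cbfa2t3, Runx1 and Runx3 overlapped one another, and all 3 lay above that of Runx2. The intervals of Runx2 and Cbfb also overlapped, as did those of Cbfb and Cbfa2t2 and of Cbfa2t2 and Runx1t1. The intervals cover counting error alone and take each peak as independent, so they are too narrow where peaks gather. Runx1, Runx3 and Cbfa2t3 together held 314 peaks, 74.1% of the family's, in 36.8% of its sequence. Cbfb, Runx1t1 and Cbfa2t2 held 14 peaks, 3.30%, in 31.8% of the sequence.

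**Figure D1:**
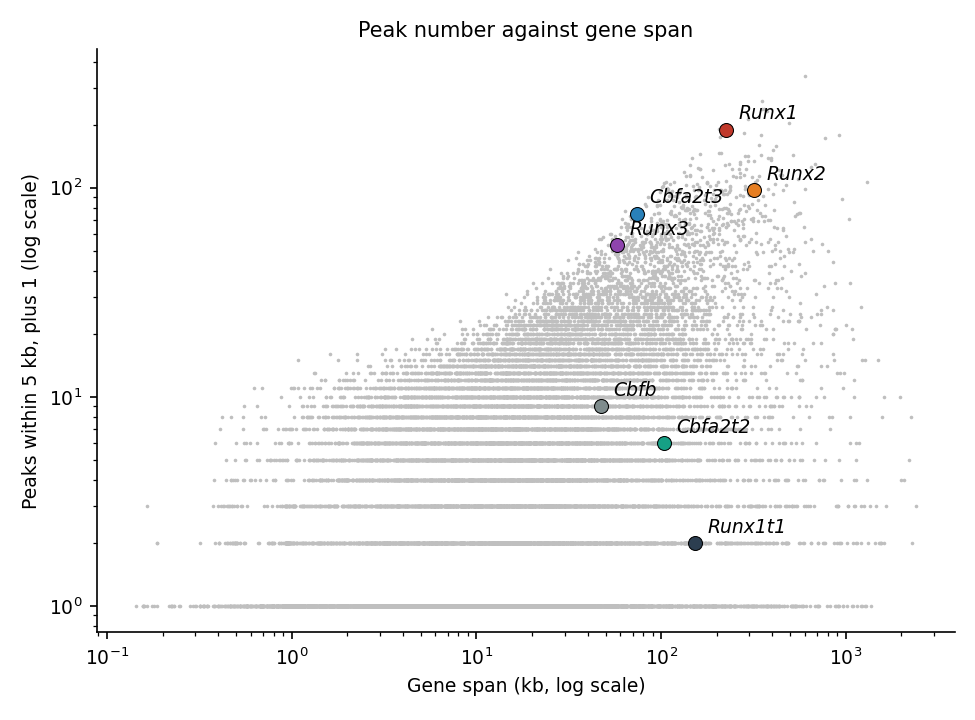
Number of peaks within 5 kb plus 1 (vertical, log scale) against gene span in kb (horizontal, log scale) for the 7 members (large labelled points) and all other protein-coding genes (small grey points). Runx1, Cbfa2t3 and Runx3 lie along the upper edge of the cloud with 188, 74 and 52 peaks, while Runx1t1 lies near its floor with 1.

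Runx1, the blood stem cell regulator and the member with the most peaks, spans 225 kb on chromosome 16 (92601466 to 92826074). It had 188 peaks (exact Poisson interval 162 to 217), of which 184 were in the body and 2 in each flank. By number of peaks it ranked 9 among the 21779 protein-coding genes, and by peaks per kb 386. All 200 protein-coding genes nearest to it in span (207 to 242 kb) had fewer, with a median of 8.5. Its peaks covered 5.04% of the window.

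Peaks ran along the whole of Runx1. Divided into 10 equal parts of 22.5 kb in the direction of transcription, the gene held 24, 25, 17, 19, 18, 16, 15, 15, 19 and 16 peaks. The first 2 parts held the highest counts, and no part was empty. In steps of 10 kb, all 22 full steps held peaks, between 4 and 13 with a median of 8. The longest stretch without a peak was 5.10 kb, from 52.9 to 58.0 kb, and the densest 10 kb held 15 peaks, from 7.49 to 17.5 kb.

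The second start of Runx1 lies 129 kb into the gene and divides it into a longer stretch before and a shorter one after it. The 129 kb before it held 116 peaks, or 0.901 per kb (exact Poisson interval 0.745 to 1.08). The 95.9 kb after it held 68, or 0.709 per kb (0.551 to 0.899). These intervals overlap. The lncRNA gene Gm30281 (92762209 to 92767240), inside Runx1, held 4 of its peaks, and the 2 in the downstream flank also lay within 5 kb of the lncRNA gene Gm30224.

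Runx3, which acts in T cells and other lymphocytes, spans 57.3 kb on chromosome 4 (135120645 to 135177990). It had 52 peaks (38.8 to 68.2), 44 in the body, 5 in the upstream flank and 3 in the downstream flank. Of the 200 genes nearest in span (56.1 to 58.6 kb), 199 had fewer peaks and 1 had more, with a median of 9. Of all protein-coding genes, 2.18% had at least as many peaks per kb.

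The peaks of Runx3 were also spread along the gene. Its 10 equal parts of 5.73 kb held 5, 2, 3, 2, 6, 2, 5, 7, 7 and 5 peaks, so that 18 lay in the first 5 parts and 26 in the last 5. The densest 10 kb, from 35.4 to 45.4 kb, held 12 and lies after the second start at 31.9 kb. The stretch before that start held 0.627 peaks per kb (0.383 to 0.968) and the stretch after it 0.943 (0.604 to 1.40), with overlapping intervals. Of the 52 peaks, 2 lay in the lncRNA gene Gm16225, just upstream of Runx3.

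Runx2, the bone formation factor, is the longest member, with 319 kb on chromosome 17 (44495987 to 44814797). It had 96 peaks (77.8 to 117), all in the body. Of the 200 genes nearest in span (279 to 358 kb), 179 had fewer and 21 had more, with a median of 6.5.

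The peaks of Runx2 lay mainly in the middle of the gene. Its 10 equal parts of 31.9 kb held 2, 2, 6, 24, 19, 17, 16, 5, 4 and 1 peaks in the direction of transcription. The fourth to the seventh part thus held 76 of the 96, or 79.2%, where the same parts of Runx1 held 37.0%, of Runx3 34.1% and of Cbfa2t3 42.0%. This contrast was noticed in the counts and has no test. Of 31 full steps of 10 kb in Runx2, 5 held no peak, and the densest 10 kb held 12, from 101 to 111 kb. The longest stretch without a peak was 28.7 kb, from 25.2 to 53.9 kb.

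Before 53.9 kb Runx2 had 2 peaks, at 22.9 and 25.2 kb from the start of its span. Both fall where Runx2 overlaps Supt3 (44777118 to 45119294), a gene for a transcription complex subunit, and to which of these genes they belong cannot be told apart. Runx2os3, an lncRNA gene inside Runx2, had none in its body. The 50 kb upstream of Runx2, which also lie in Supt3, held 1 peak.

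**Figure D2:**
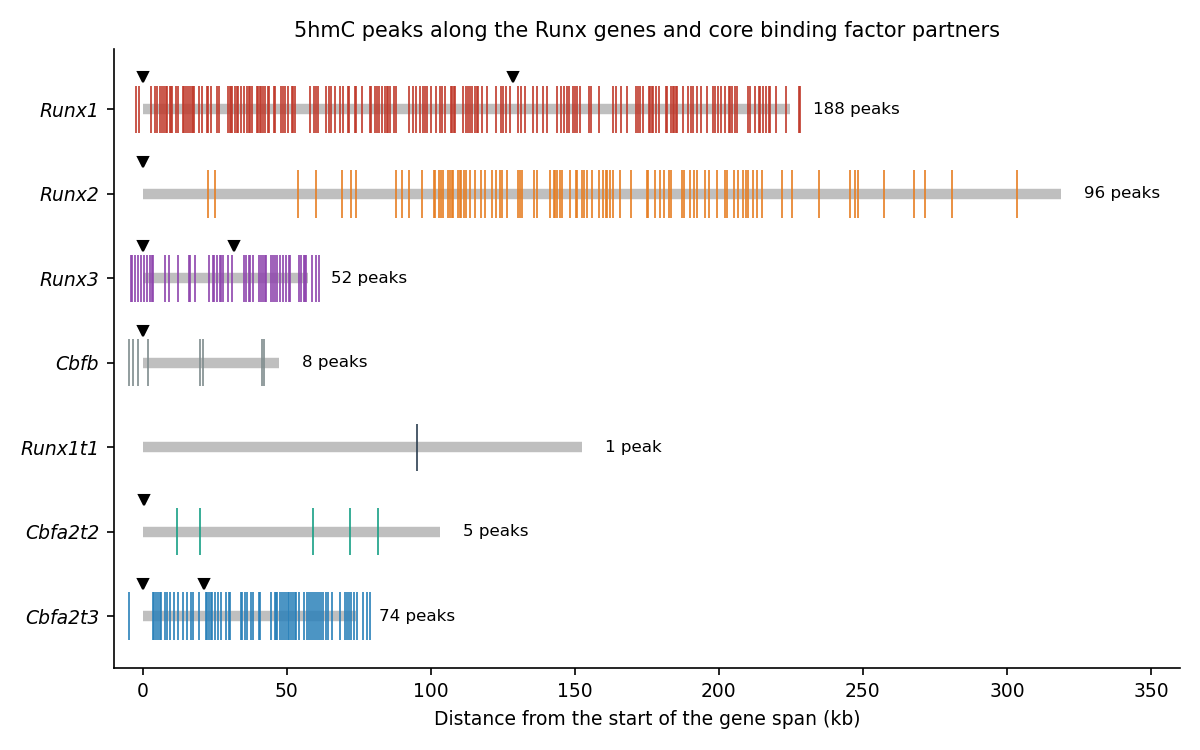
Position of each peak (vertical strokes) along the 7 members, in kb from the start of the gene span; grey bars are the gene spans, strokes beyond them lie in the 5 kb flanks and triangles mark the starts in the RefSeq promoter table. Runx1, Runx3 and Cbfa2t3 carry peaks along most of their length, Runx2 mainly in its middle, and Cbfb, Runx1t1 (drawn from low to high coordinate) and Cbfa2t2 hold 8, 1 and 5 peaks.

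**Figure D3:**
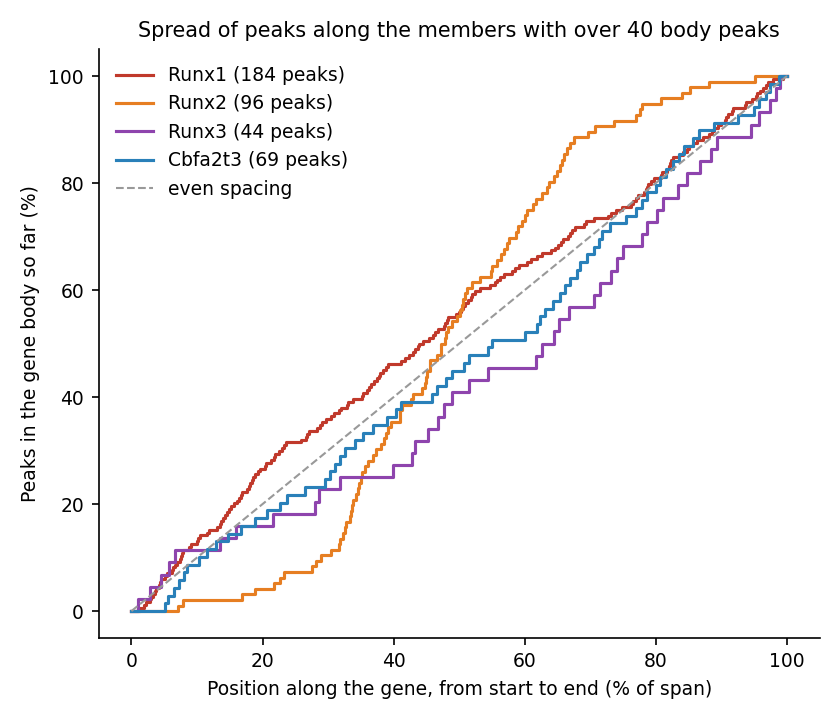
Share of the peaks in the gene body reached (vertical, %) against position along the gene from start to end (horizontal, % of span) for the 4 members with more than 40 body peaks; the dashed line is even spacing. In the first 5 of 10 equal parts Runx1 has 103 of its 184 peaks, Cbfa2t3 31 of 69 and Runx3 18 of 44. Runx2 has 10 of its 96 in the first 3 parts and 76 in the next 4.

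Cbfb encodes the common partner of all RUNX proteins and spans 47.3 kb on chromosome 8 (105170674 to 105217989). It had 8 peaks (3.45 to 15.8). Measured from the start of the gene, with upstream negative, they lay at -4.57, -3.44, -1.69, 1.80, 20.01, 20.97, 41.6 and 42.0 kb. The 5 in the body thus form 1 near the start and 2 close pairs, with 20.6 kb free of peaks between the pairs. Among the 200 genes nearest in span (46.2 to 48.4 kb), 103 had fewer and 93 had more, with a median of 7. Set against the 200 genes nearest to each in span, more peaks than the member were found in none for Runx1, 1 for Runx3 and 21 for Runx2, the DNA-binding subunits, and in 93 for their shared partner.

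By peaks per kb, the ETO family held the highest and the lowest member. Cbfa2t3, whose human counterpart is also called ETO2 and which works in stem cell and erythroid transcription complexes, spans 74.2 kb on chromosome 8 (122625136 to 122699332). It had 74 peaks (58.1 to 92.9), 69 in the body, 1 in the upstream flank and 4 in the downstream flank. All 200 genes nearest in span (71.9 to 76.6 kb) had fewer, with a median of 8.5, and by peaks per kb it ranked 204 of all protein-coding genes. Its peaks covered 5.67% of the window, the highest share of the 7.

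Cbfa2t3 carried peaks along its length, apart from its first few kb. Its 10 equal parts of 7.42 kb held 6, 6, 5, 8, 6, 5, 10, 9, 8 and 6 peaks, and all 7 full steps of 10 kb held between 7 and 13. The longest stretch without a peak was the first 3.78 kb. The densest 10 kb, from 44.5 to 54.5 kb, held 15. Before the second start, 20.9 kb after the first, the density was 0.756 per kb (0.432 to 1.23), and after it 0.999 per kb (0.749 to 1.31), again with overlapping intervals. Peaks toward the gene's end also count for a neighbour: 7 lay within 5 kb of Pabpn1l (122619471 to 122622735), 6 within 5 kb of Mir6396 and 1 within 5 kb of Trappc2l. A further 7, near the first start, lay within 5 kb of the lncRNA gene Gm10612.

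Runx1t1 encodes ETO, the founding member of the family and the fusion partner of RUNX1. It spans 152 kb on chromosome 4 (13742628 to 13895056) and had 1 peak (0.0253 to 5.57), at 13837761 to 13837819, 95.2 kb from its low-coordinate end. Of the 200 genes nearest in span (145 to 161 kb), 161 had more, 12 also had 1 and 27 had none, with a median of 13. The 50 kb on each side held no peak either. The fusion partners in human leukaemia, Runx1 and Runx1t1, were thus the member with the most peaks and the member with the fewest.

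Cbfa2t2, also known as MTGR1 and the third corepressor gene of the family, spans 103 kb on chromosome 2 (154436098 to 154539356). It had 5 peaks (1.62 to 11.7), all in the body, at 11.9, 19.8, 59.1, 72.0 and 81.6 kb from the start of its span. The longest stretch without a peak was 39.3 kb. Of the 200 genes nearest in span (99.7 to 107 kb), 135 had more and 59 had fewer, with a median of 12. The peak at 72.0 kb lies in the pseudogene Gm18767.

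In Cbfa2t3, Runx1 and Runx3, neighbouring peaks stood typically just under 1 kb apart. The median distance between neighbouring midpoints in the body was 796 bp in Cbfa2t3, 912 bp in Runx1, 944 bp in Runx3 and 1576 bp in Runx2. Neighbours lay less than 1 kb apart in 60.3% of pairs in Cbfa2t3, 58.1% in Runx3, 54.6% in Runx1 and 28.4% in Runx2. The closest pair in any of these genes, in Runx1, was 248 bp apart. Peak widths had a median of 65 bp in each of these 4 genes, as over the whole list. Positions in the list are rounded, to multiples of 4 bp in Runx2, 8 bp in Runx1, Cbfb and Cbfa2t3 and 16 bp in Runx3 and Cbfa2t2, so distances and widths are no finer than that.

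Around the annotated starts the dense genes were not peak-free, but no peak midpoint fell in any of the 9 windows of 300 bases. Over all protein-coding genes 3.61% of these windows held one. A window without a peak is thus the usual case, and this count does not set the members apart. At the first start of Runx1 the nearest peaks lay 1.16 kb upstream and 3.04 kb downstream, and at the second 1.11 kb upstream and 1.73 kb downstream. At the first start of Runx3 they lay 0.662 kb upstream and 0.571 kb downstream, on both sides of the shared ACCACA pair printed above, and at the second 0.706 and 3.45 kb. At the second start of Cbfa2t3 they lay 1.54 kb upstream and 0.760 kb downstream, against 5.00 and 3.56 kb at its first.

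Of the 9 starts, 3 had a peak within 1 kb, namely both of Runx3 and the second of Cbfa2t3. Over all starts of protein-coding genes it was 27.5%, with 28.9% of starts at a CpG ratio of 0.6 or more and 26.2% of the others. The members' count is close to that share. Within 2.5 kb a peak was found at 6 of the 9 starts, where 50.8% of all starts had one. The single starts that the promoter table gives for Runx2 and Cbfa2t2 had none within 5 kb, and any other starts were not examined. The nearest peaks lay 25.6 kb upstream and 22.7 kb downstream of the Runx2 start. For the Cbfa2t2 start they lay 8.34 kb upstream and 11.5 kb downstream. At Cbfb, where 2 of its peaks also lie within 5 kb of the small RNA gene Gm22063, the nearest lay 1.69 kb upstream and 1.80 kb downstream.

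**Figure D4:**
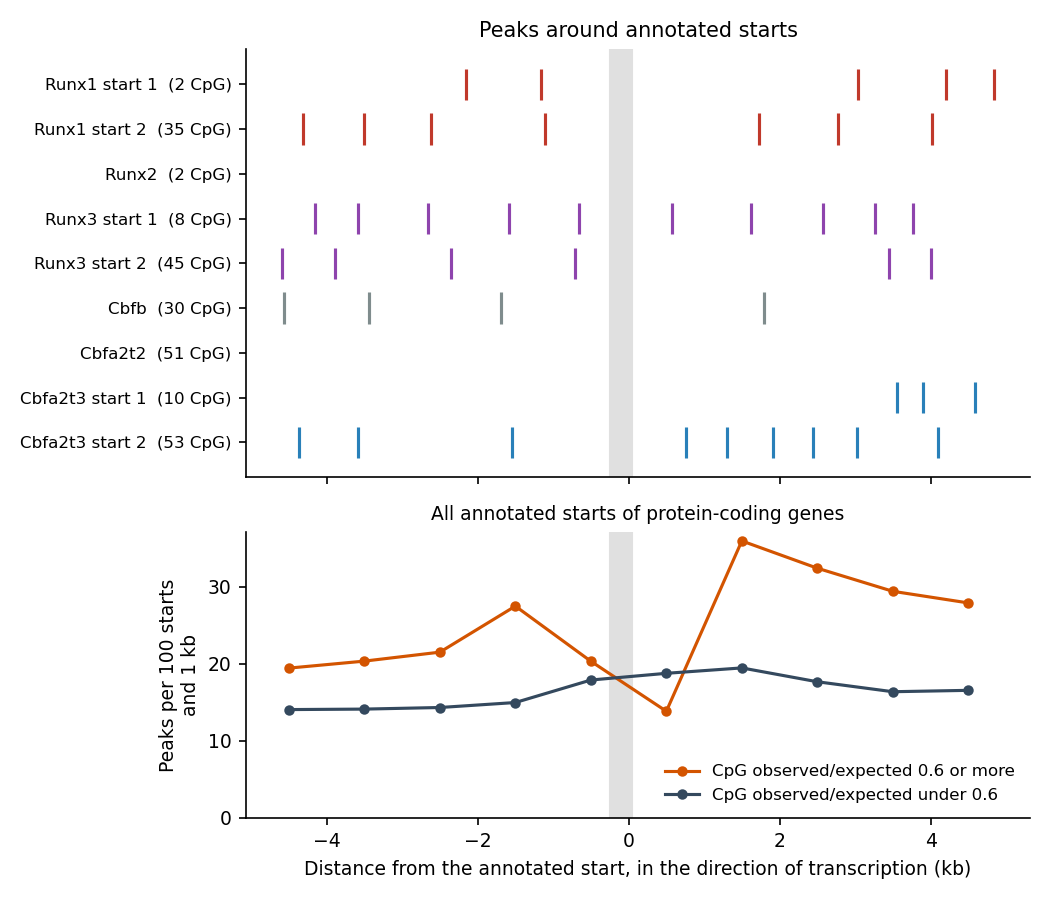
Upper panel, peaks (strokes) within 5 kb of each of the 9 member starts, with the number of CpG in its 300-base window; lower panel, peaks per 100 starts and 1 kb around all starts of protein-coding genes, by observed/expected CpG. The horizontal axis is distance in kb in the direction of transcription and the grey band is the 300-base window. This window is empty at every member start, and over all starts 3.61% of such windows held a peak midpoint. Over all starts the CpG-rich class has 13.8 peaks per 100 starts in the first kb downstream and 36.0 in the next.

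The wider surroundings of the members also held different numbers of peaks. The 50 kb upstream and the 50 kb downstream of Runx1 held 12 peaks each, or 0.240 per kb (0.124 to 0.419). This is below the 0.819 per kb of the Runx1 body, and neither side holds a protein-coding gene. The 50 kb upstream of Runx3 held 41, or 0.820 per kb (0.588 to 1.11), and it too holds no protein-coding gene. This is close to the 0.767 per kb of the Runx3 body. The 50 kb downstream of Runx3, which reaches Clic4, held 19. Both sides of Cbfa2t3 were dense, with 36 peaks, or 0.720 per kb, upstream, where no other protein-coding gene lies, and 42, or 0.840 per kb, downstream, where Pabpn1l, Trappc2l, Galns and Aprt lie. Cbfa2t2 had 2 upstream and 21 downstream, Cbfb 8 and 12, and Runx2 1 and 6.

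Other genes of RUNX biology were counted by the same rule, in lists chosen with earlier results of these data known. Against each count stands the 73.1% of all protein-coding genes with a peak and their median of 0.106 peaks per kb. The 7 genes of proteins that work with RUNX1 in blood stem cells all had peaks, with a median of 0.338 per kb. Erg had 92, Fli1 89, both encoding ETS factors, and the LIM protein gene Lmo2 19. Of 14 target genes of RUNX factors in blood cells, 13 had peaks, with a median of 0.565 per kb. Csf1r, Spi1, Mpo, Elane and Cebpa among them are also marrow markers, and the marrow markers had a median of 0.707 per kb. As the lists share these genes, their medians do not tell whether the density is particular to the targets. The markers outside the target list were Cd79a with 0.905 per kb, Lyz2 0.882, Itgam 0.501, Ctsg 0.315 and Ptprc 0.155. Among the targets Ets1 had 91 peaks, the macrophage receptor gene Csf1r and the myeloid regulator Spi1 34 each, and the interleukin gene Il3 none.

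The corepressors and coactivators gave a mixed picture. Of 12 corepressor genes 11 had peaks, with a median of 0.109 per kb, close to that of all genes. The Groucho family genes Tle3 and Tle4 had 42 and 22, the histone deacetylase gene Hdac1 had 14, and Zbtb33 on chromosome X had none. All 10 coactivator and modifying enzyme genes had peaks, with a median of 0.318 per kb. The cell cycle kinase gene Cdk6 had 121, the kinase gene Hipk2 63 and the acetyltransferase gene Kat6b 36. The partner genes in RUNX1 and CBFB fusions ranged widely, with 183 peaks at Etv6, 10 at Myh11 and 9 at Mecom, a median of 0.0929 per kb.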

How the data were processed

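Sheared DNA from marrow cells had its 5hmC glucosylated with an azide sugar, linked to biotin and pulled down on avidin before paired-end sequencing, per the labels' protocols. The deposited files are peak lists with 3 columns (chromosome, start, end) and no score. They were called with PICS (read length 99 bp, fragment length 200 bp, windows of 250 bp moved by 20 bp, at least 3 reads in a window and 10 in a region), per the file headers. The build is mm10, per the submitters' processing notes, and neither the aligner nor a score cutoff is stated.

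Both lists held the same 223267 lines and were counted as 1, and 14799 repeated lines were dropped. Gene spans and promoter sequences came from RefSeq tables of GRCm38.p6. Gene models starting below 3 Mb on chromosomes other than Y were left out as scaffold models. Strand came from the promoter table, so Runx1t1 was read from low to high coordinate. Counts were made in Python 3.11.15 with pandas 2.3.3 and exact Poisson intervals with scipy 1.17.1, and the counting was tested on simulated peaks. Members and lists were chosen with earlier results of these data known. Named genes were all members, genes sharing their peaks, the 2 genes nearest to each in span, and in each list the 3 genes with the most peaks and those with none. A further corepressor gene was left out of its list and is not reported here. No test was run, since 1 list gives no replicate. The alternatives were gene body only, flanks of 2 and 10 kb, any overlapping base, repeated lines kept, and each replicate's list alone.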

Additional observations from a re-analysis of the deposited data

How the results depend on the processing

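Each of 10 results (the peaks at each of the 7 members, their sum, the members with a peak and the median per kb) was recomputed under 7 alternatives. Of these 70 values, 68 stayed within 1.5 times the value reported. With the gene body alone Cbfb had 5 peaks, since 3 of its 8 lie in the upstream flank, and with flanks of 10 kb Cbfa2t2 had 8, as the wider window adds 3. The sum over the members ran between 404 (gene body alone) and 442 (flanks of 10 kb), and the median per kb between 0.283 and 0.301. The order of the members by peaks per kb was the same in all 7. With repeated lines kept, Runx2 had 98, Cbfa2t3 77 and Cbfa2t2 6. Each replicate's list used alone gave the same values, as the lists share every line, and this says nothing about stability. No paired analysis was possible because the lists hold 1 set of peaks, from a library that may be NIDF-AML or normal BM. The lists give no score, so a stricter threshold could not be tried.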

Other observations

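The protein-coding genes nearest to each member in span gave a sense of how far genes of one length differ. Slc10a7 and Sfmbt2, next to Runx1 in span, had 44 and 1 peaks within 5 kb. Itgbl1 had 1 and Gria1 had none, at the span of Runx2. Crtc1 had 22 and Ube2r2 13, at that of Runx3, and Bcl7c had 15 and Stxbp3 8, at that of Cbfb. At the span of Runx1t1, Adcy9 had 25 and Akap9 16, and at that of Cbfa2t2, Arhgef18 had 41 and Reep1 9. Aqr had 5 and Radx none, at the span of Cbfa2t3.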
